A study of Mus musculus with 9 samples.

Results

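Organic anion and cation transporters carry bile acids, steroid conjugates, prostaglandins, carnitine, urate and many drugs across the plasma membrane. Their genes were followed in whole liver of mice deficient in O-GlcNAc transferase (OGT) and of control littermates. The members were all gene symbols of the count tables beginning with Slco, Slc22a or Slc47a and a number, antisense and overlapping-transcript names left out. This gave 43 genes of 24421 listed, and no symbol had to be left out by its name. Of these, 42 are described. By family they were 15 organic anion transporting polypeptides (OATP, Slco genes), 3 organic cation transporters (OCT), 3 carnitine and zwitterion transporters (OCTN), 14 organic anion transporters (OAT), 6 other Slc22a genes and 2 multidrug and toxin extrusion genes (MATE, Slc47a).

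The series compared 4 libraries of OGT-deficient liver with 5 WT libraries. All mice were 5 weeks old, carried the C57BL/6J background and had been without food for 6 h. OGT is the enzyme that adds the sugar N-acetylglucosamine to proteins inside the cell. How and in which cells the gene was deleted is not given in the sources used here. The series' text gives as many mice as there are libraries and says that both sexes were used, without saying which mouse was which.

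Hepatocytes take up organic anions from sinusoidal blood mainly through OATPs, and organic cations through OCTs. They pass them on to bile through exporters on the opposite, canalicular membrane, where the proton exchanger MATE1, encoded by Slc47a1, moves cations. Several OATs and some OCT and MATE proteins are better known from kidney, where they secrete drugs or reclaim urate.

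Reads assigned to genes numbered 32337861 to 54130901 per library. Levels are given as CPM, the count scaled to the library's normalised total, and 3 counts corresponded to 0.0572 to 0.104 CPM. Ogt itself measured 20.6, 14.3, 17.2 and 15.6 CPM in OGT-deficient 1 to 4, against 51.1, 54.2, 57.1, 73.1 and 72.3 CPM in WT 1 to 5 (log2 fold change -1.86, adjusted p = 3.53e-07). Alignments to more than a single place, which entered no gene count, numbered 0.205 to 0.224 per assigned read in OGT-deficient libraries and 0.314 to 1.02 in WT libraries. Several members are known to differ between male and female mouse liver. The Y-linked gene Ddx3y stood at 55.4 to 60.9 CPM in OGT-deficient and 77.3 to 91.1 CPM in WT libraries, and Xist did not exceed 0.169 CPM in OGT-deficient and 1.13 CPM in WT libraries. All 9 libraries thus held Y-linked transcript and little Xist, as male tissue does, although both sexes were named.

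Most of the transporter genes with enough counts to test were lower in OGT-deficient liver. Of the 42 members described, 23 passed the filter on low counts, and of these 14 fell, 5 rose and 4 did not pass the test. That is 82.6% called, where 61.1% of all 14104 tested genes were called, 29.4% lower and 31.6% higher. The deepest falls were those of Slc22a28 (log2 fold change -2.33), Slc22a4 (-2.29) and Slc47a1 (-1.97). The abundant uptake genes Slco1b2 and Slco1a1 fell less deeply, with log2 fold changes of -0.59 and -0.39. Slc22a12, Slc22a29 and Slc22a27, which had at most 37 counts in a WT library, rose, as did Slco3a1 and Slc22a17. Calls were made with edgeR's quasi-likelihood test at an adjusted p under 0.05. In bulk tissue, fewer cells of a type and less transcript per cell cannot be told apart.

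For 51.3% of all tested genes no OGT-deficient library fell within the WT range and the ranges did not overlap. Among the 23 tested members the groups did not overlap for 17, with 13 lower and 4 higher, where all genes gave 25.0% lower and 26.2% higher. The median log2 fold change was -0.70 over the tested members and 0.02 over all tested genes. Slc22a12 and Slc22a29 passed the filter through the OGT-deficient libraries alone, with at least 10 counts in 4 of 4 OGT-deficient and 0 of 5 WT libraries, and Slc22a27 reached 10 counts in 4 of 4 OGT-deficient and 2 of 5 WT libraries. The difference of these 3 genes was thus in part set by the filter. With upper-quartile scaling the median of all genes moved upward by 0.123 and 62.5% of calls were higher, against 51.8% here. The members were then 5 higher and 13 lower, and the gene that lost its call was Slco1a1.

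**Figure D1:**
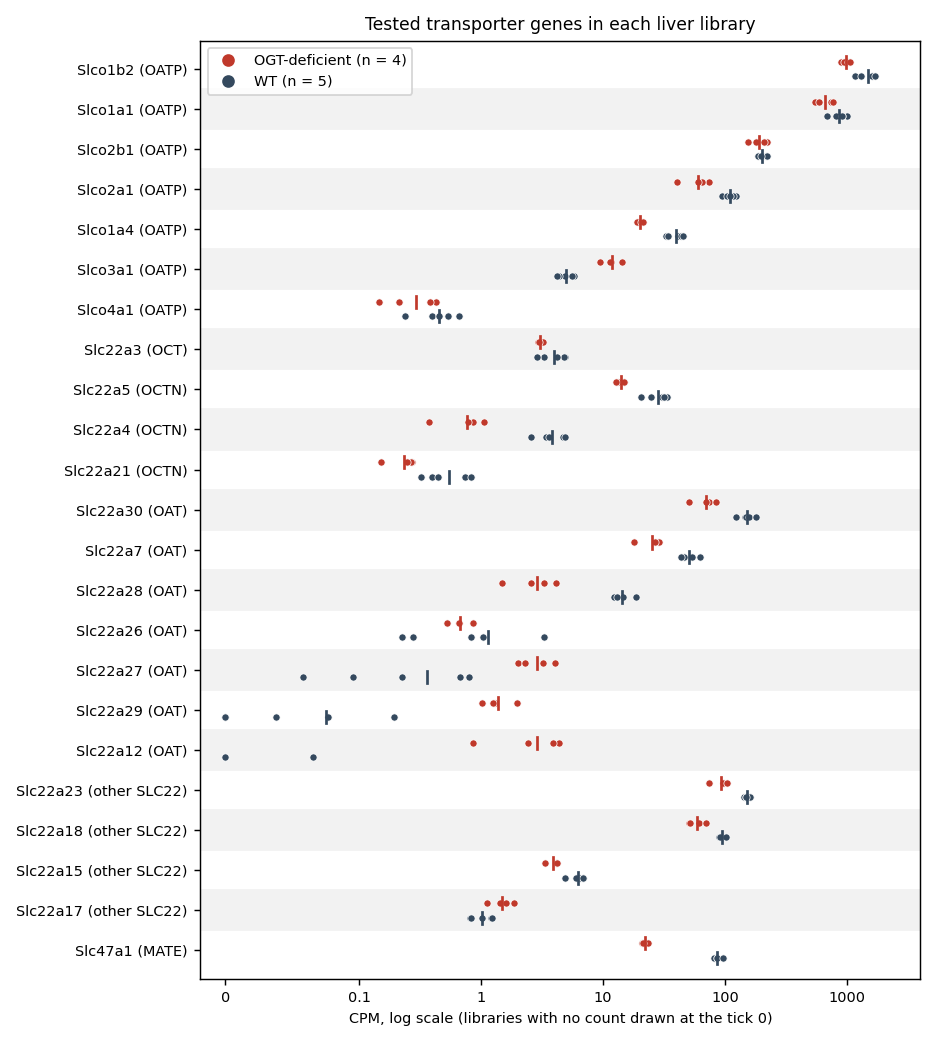
CPM of the 23 tested members in each library on a log axis, with OGT-deficient libraries in red above WT libraries in dark blue, a vertical bar at each group mean of at least 0.02 CPM, and libraries with no count at the tick 0. Members are grouped by family. The groups stand apart for 17 of the 23, with 13 to the left of WT and 4 to its right.

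**Figure D2:**
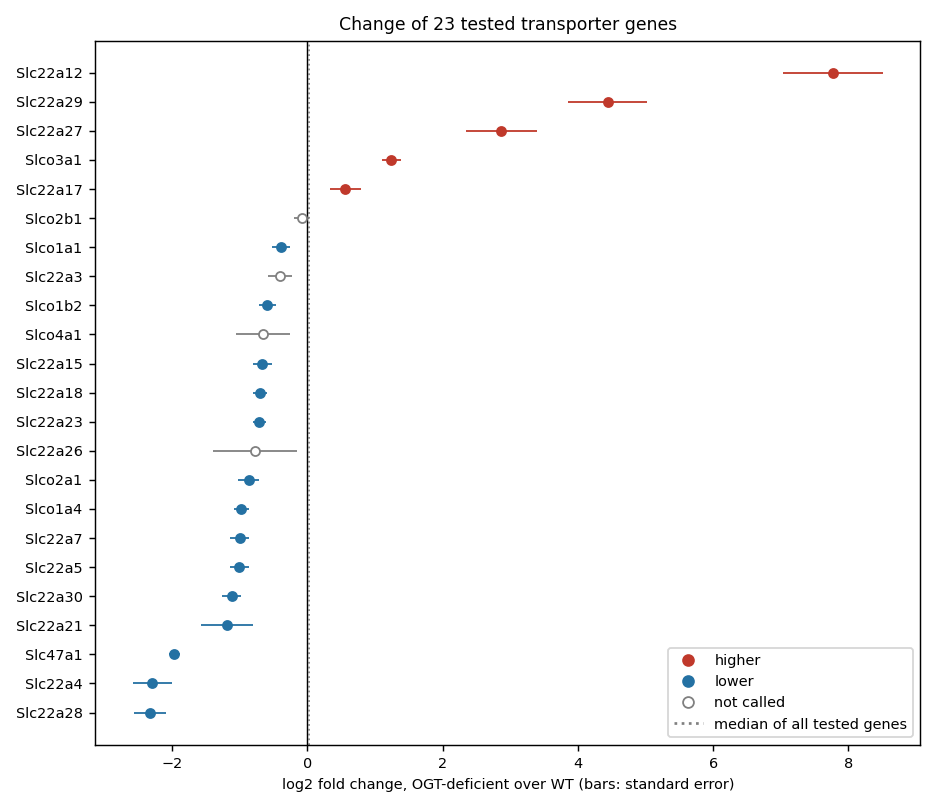
Log2 fold change, OGT-deficient over WT, of the 23 tested members, with bars for the standard error. Filled points passed the test (red higher, blue lower), open points did not, and the dotted line marks the median of all tested genes at 0.022. The 14 lower members lie between -2.33 and -0.39 and the 5 higher ones between 0.56 and 7.77.

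Per kilobase of exon, Slco1b2 was the most abundant of these in both groups, at 199 ± 15.1 CPM per kb (SD, n = 4) in OGT-deficient liver and 300.3 ± 47.3 CPM per kb (SD, n = 5) in WT liver. Slco1a1 followed among the members described, at 125 ± 20.4 CPM per kb in OGT-deficient liver and 164 ± 22.5 CPM per kb in WT liver. Slc22a18 ranked 3 in both groups, at 34.4 ± 5.14 CPM per kb in OGT-deficient and 55.8 ± 3.76 CPM per kb in WT liver. Slc22a30 and Slco2b1, next in both groups, exchanged places, at 20.6 ± 4.10 and 32.1 ± 5.26 CPM per kb in OGT-deficient liver and at 44.9 ± 6.25 and 33.9 ± 2.66 CPM per kb in WT liver. Slc47a1 ranked 8 in OGT-deficient liver and 6 in WT liver. Slc22a4 ranked 19 of 23 in OGT-deficient liver and 13 of 23 in WT liver. Summed over the 42 members, the CPM came to 1928 to 2448 per OGT-deficient library and 2761 to 3622 per WT library. Slco1b2, Slco1a1 and Slco2b1 together held 81.1 to 83.2% of these counts in OGT-deficient libraries and 74.2 to 79.3% in WT libraries.

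Of 7 tested OATP genes, 4 fell, 1 rose and 2 did not pass the test, or 71.4% called beside 61.1% of all genes. Slco1b2 encodes OATP1B2, the rodent counterpart of human OATP1B1 and OATP1B3, which takes up bile acids, bilirubin conjugates and statins. It lies on chromosome 6 at 141629518 to 141686646 (plus strand, GRCm38) and measured 899, 941, 1024 and 1061 CPM in OGT-deficient 1 to 4, against 1174, 1610.0, 1292, 1613 and 1713 CPM in WT 1 to 5. All OGT-deficient libraries lay below all WT libraries, and the log2 fold change was -0.59 (SE 0.12, adjusted p = 0.00111).

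Slco1a1, an uptake transporter of hepatocytes with higher expression in male than in female mouse liver, was read at 552, 745, 585 and 762 CPM in OGT-deficient 1 to 4, against 688, 999, 814, 917 and 905 CPM in WT 1 to 5. The groups overlapped, because OGT-deficient 2 and 4 exceeded WT 1. The log2 fold change was -0.39 (SE 0.13, adjusted p = 0.0218). Adjusted p was 0.00666 to 0.0803 over the alternatives. The call was lost with upper-quartile scaling (0.0803), without OGT-deficient 1 (0.05, not below the threshold), without OGT-deficient 3 (0.0646) and without WT 2 (0.0542). Slco1a4, its neighbour, carries bile acids and cardiac glycosides. It fell more steeply, with 19.2, 19, 20.6 and 21.2 CPM in OGT-deficient 1 to 4, against 41.4, 43.2, 32.6, 45.2 and 34.3 CPM in WT 1 to 5. Its OGT-deficient values spread over 2.2 CPM and stood apart from WT (log2 fold change -0.98, SE 0.11, adjusted p = 6.68e-06).

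The coding sequences of Slco1a1 and Slco1a4 were 86.6% identical, and no more than 2.73% of the 50-base stretches of either transcript occurred in another listed gene. Slco1a4 amounted to 2.55 to 3.52% of Slco1a1 CPM in OGT-deficient libraries and 3.79 to 6.01% in WT libraries. The mean log2 ratio differed by -0.57 (exact permutation test, two-sided, p = 0.0159, the smallest that 4 against 5 libraries allow). Adjustment over the 3 ratios of neighbouring paralogs compared, chosen after their values were seen, left it at 0.0159, because all 3 gave this p. After such a choice neither p is independent support.

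Slco2b1, a carrier of steroid sulfates and statins, measured 154, 223, 178 and 210.2 CPM in OGT-deficient 1 to 4, against 186, 188, 215, 221 and 199 CPM in WT 1 to 5. These ranges overlapped broadly, the log2 fold change was -0.08 (SE 0.11, adjusted p = 0.57), and its sign turned to 0.04 with upper-quartile scaling. Slco2a1 encodes the prostaglandin transporter, which clears prostaglandins from the circulation and is a known endothelial gene. It fell to 40.8, 74.2, 64.6 and 60.3 CPM in OGT-deficient 1 to 4, against 123, 95, 103, 116 and 109 CPM in WT 1 to 5. The log2 fold change was -0.87 (SE 0.15, adjusted p = 2.43e-04), and OGT-deficient 1 gave the lowest value. Of 8 endothelial markers Vwf rose, Clec4g and Stab2 fell and 5 did not pass the test, or 37.5% called beside 61.1% of all genes. Stab2 overlapped between the groups and lost its call with upper-quartile scaling and without OGT-deficient 1, WT 1, WT 2 or WT 3 (adjusted p = 0.0369, up to 0.0908). The summed level of the 8 was 257 to 474 CPM in OGT-deficient and 411 to 567 CPM in WT libraries, none was at 0, and their part in the fall of Slco2a1 was not tested.

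Slco3a1, a broadly expressed OATP that carries prostaglandins, was the OATP gene that rose. It reached 14.4, 9.53, 11.6 and 11.5 CPM in OGT-deficient 1 to 4, against 5.77, 4.85, 5.61, 4.37 and 4.23 CPM in WT 1 to 5, with no overlap (log2 fold change 1.24, SE 0.14, adjusted p = 1.03e-05). Of all tested genes 31.6% were higher. In the same libraries 7 of 7 tested cholangiocyte markers, 7 of 8 stellate cell markers and 7 of 8 recruited macrophage markers rose. The part of these cells in the rise of Slco3a1 was not tested. Slco4a1, a thyroid hormone carrier, averaged 0.292 ± 0.134 CPM in OGT-deficient and 0.457 ± 0.157 CPM in WT liver and did not pass the test (log2 fold change -0.65, adjusted p = 0.173).

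In the OCT family, Slc22a3, a low-affinity monoamine carrier on chromosome 17 at 12418960 to 12507704, averaged 3.03 ± 0.118 CPM in OGT-deficient and 4.00 ± 0.904 CPM in WT liver. The groups overlapped and it was not called (log2 fold change -0.40, adjusted p = 0.065), but passed with DESeq2 (0.0473) and without WT 2 (0.0441) or WT 4 (0.0199). The neighbouring plasminogen gene Plg, which itself fell by 1.13 on the log2 scale, covers 9.31% of the exonic bases of Slc22a3. Slc22a2, a cation carrier of the kidney, was not tested, with 2 counts in all.

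All 3 OCTN genes fell, where 29.4% of all tested genes were lower. They lie within 164 kb on chromosome 11. Slc22a5 encodes OCTN2, the main carnitine importer, and stood at 15, 13.3, 14.8 and 12.9 CPM in OGT-deficient 1 to 4, against 24.7, 33.3, 20.4, 30.4 and 31.8 CPM in WT 1 to 5. The groups were fully separated (log2 fold change -1.01, SE 0.14, adjusted p = 4.08e-05). Slc22a4 encodes the ergothioneine transporter OCTN1 and dropped further, to 0.864, 0.378, 1.05 and 0.783 CPM in OGT-deficient 1 to 4, against 2.56, 3.44, 3.59, 4.72 and 4.86 CPM in WT 1 to 5. The highest OGT-deficient value was below the lowest WT value (log2 fold change -2.29, SE 0.29, adjusted p = 2.15e-05). Slc22a4 made up 2.85 to 7.10% of Slc22a5 CPM in OGT-deficient libraries and 10.3 to 17.6% in WT libraries, a difference of -1.39 in mean log2 ratio (exact permutation test, two-sided, p = 0.0159, adjusted 0.0159). This ratio was chosen after its values were seen. Its p is the smallest that 4 against 5 libraries allow and is no independent support.

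Slc22a21, which encodes the mouse carnitine carrier OCTN3, was near the detection limit at 0.274, 0.151, 0.267 and 0.245 CPM in OGT-deficient 1 to 4, against 0.320, 0.735, 0.393, 0.832 and 0.447 CPM in WT 1 to 5. Every OGT-deficient value was lower than every WT value (log2 fold change -1.19, SE 0.38, adjusted p = 0.0159). With the replicate number as a block it missed the threshold (0.0527). Of its 50-base stretches 24.2% also occur elsewhere, mostly in Slc22a5, where the share is 27.1%, so both values are uncertain. Of 7 tested genes of carnitine synthesis and use, 5 fell: the carnitine carrier of mitochondria Slc25a20 (log2 fold change -0.82), Aldh9a1 (-0.60) and Bbox1 (-0.87) of carnitine synthesis, and the acyltransferases Cpt2 (-0.69) and Crot (-0.84). Crat, another carnitine acyltransferase, rose by 0.96, and Cpt1a did not pass the test (log2 fold change -0.20, adjusted p = 0.137). This made 85.7% called, where 61.1% of all tested genes were called, 29.4% lower and 31.6% higher.

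The OAT family went both ways. Of 7 tested genes 3 rose, 3 fell and 1 did not pass the test, or 85.7% called beside 61.1% of all tested genes. The 3 that rose were Slc22a12, Slc22a29 and Slc22a27, whose difference was in part set by the filter on low counts. Both directions met within a cluster of 6 genes on chromosome 19, at 7673061 to 8405111 (732 kb, all on the minus strand), which holds rodent relatives of the organic anion transporters. Slc22a27 and Slc22a29 rose, Slc22a28 and Slc22a30 fell, and along the chromosome the rising and falling genes alternate. Slc22a26 was not called and Slc22a19 had no count.

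The 4 called genes of the cluster fall into a pair that rose and a pair that fell, and each pair is also a pair by sequence. The coding sequences of Slc22a27 and Slc22a29 were 97.3% identical and those of Slc22a28 and Slc22a30 98.8%, while identity across the pairs was 91.5 to 92.2%. The first 60 coding bases show this, with capitals at the 2 positions where the 4 genes are not all the same.
Slc22a27: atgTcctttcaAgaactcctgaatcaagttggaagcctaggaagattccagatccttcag
Slc22a29: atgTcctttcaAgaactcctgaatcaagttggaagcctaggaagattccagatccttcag
Slc22a28: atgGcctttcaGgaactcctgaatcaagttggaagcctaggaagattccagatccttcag
Slc22a30: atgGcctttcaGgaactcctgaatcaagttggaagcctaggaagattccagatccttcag
Within each pair these stretches were the same. Reads that align to several genes were not counted. Of the 50-base stretches of the longest transcript, 53.9% of Slc22a28, 36% of Slc22a30, 30.5% of Slc22a27 and 30.5% of Slc22a29 occurred in another listed gene. The single-gene values are therefore uncertain. Sums over each pair are given as well, but uncounted reads shared within a pair are missing from the sums too.

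The promoters of the same 4 genes are shown because the pairing differs there. Each covers 250 bases before to 50 after the start annotated by RefSeq (GRCm38.p6, minus strand), at chr19:7965978-7966277 for Slc22a27, chr19:8218851-8219150 for Slc22a29, chr19:8131933-8132232 for Slc22a28 and chr19:8405056-8405355 for Slc22a30. Capitals mark the 50 bases after the start.
Slc22a27: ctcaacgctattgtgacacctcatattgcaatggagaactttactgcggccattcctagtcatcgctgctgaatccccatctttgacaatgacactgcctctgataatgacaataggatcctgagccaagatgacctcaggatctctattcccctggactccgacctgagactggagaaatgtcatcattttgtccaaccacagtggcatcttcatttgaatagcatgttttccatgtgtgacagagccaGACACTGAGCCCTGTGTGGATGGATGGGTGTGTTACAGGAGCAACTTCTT
Slc22a29: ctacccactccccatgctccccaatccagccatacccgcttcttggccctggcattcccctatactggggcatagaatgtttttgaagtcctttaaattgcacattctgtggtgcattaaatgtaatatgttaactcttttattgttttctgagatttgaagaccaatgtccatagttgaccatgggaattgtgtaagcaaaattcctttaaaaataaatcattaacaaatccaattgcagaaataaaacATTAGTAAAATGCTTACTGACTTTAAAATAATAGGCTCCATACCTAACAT
Slc22a28: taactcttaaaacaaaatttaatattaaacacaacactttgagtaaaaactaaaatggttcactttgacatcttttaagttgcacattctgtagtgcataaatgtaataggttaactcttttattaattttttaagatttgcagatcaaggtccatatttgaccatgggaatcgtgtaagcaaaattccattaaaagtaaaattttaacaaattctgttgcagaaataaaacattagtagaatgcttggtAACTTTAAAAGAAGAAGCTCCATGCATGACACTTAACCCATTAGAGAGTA
Slc22a30: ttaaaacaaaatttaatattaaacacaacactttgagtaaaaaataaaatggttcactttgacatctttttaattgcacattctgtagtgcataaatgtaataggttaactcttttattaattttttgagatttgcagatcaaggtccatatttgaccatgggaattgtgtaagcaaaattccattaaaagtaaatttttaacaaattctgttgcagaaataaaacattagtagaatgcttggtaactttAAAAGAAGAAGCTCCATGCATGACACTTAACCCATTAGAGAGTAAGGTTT
The promoters of Slc22a28 and Slc22a30, the pair that fell, were 94.1% identical. Those of Slc22a27 and Slc22a29, the pair that rose, were 48.2% identical, within the 43.2 to 68.0% found for the other pairings of these 4. The Slc22a29 promoter shared more with Slc22a28 (68.0%) and Slc22a30 (65.3%) than with Slc22a27.

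**Figure D3:**
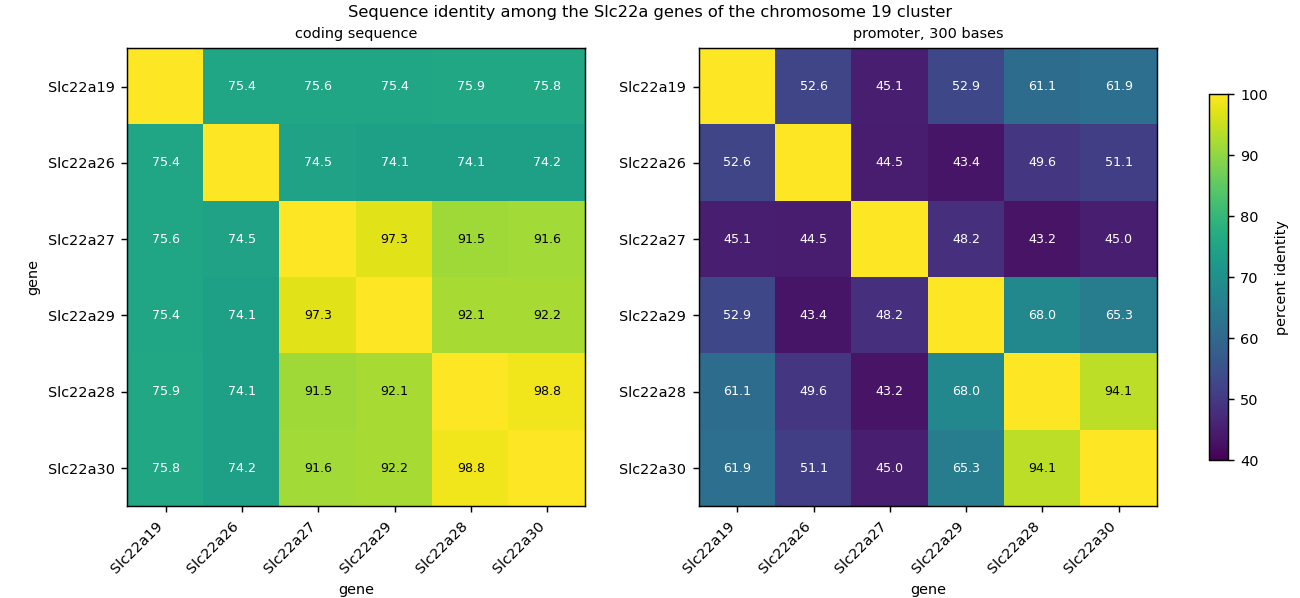
Percent identity between the 6 Slc22a genes of the chromosome 19 cluster in the coding sequence (left) and in the 300-base promoter (right), by global alignment. Slc22a27 with Slc22a29 and Slc22a28 with Slc22a30 form near-identical coding pairs at 97.3 and 98.8%, and in the promoter a value above 90 is found for Slc22a28 with Slc22a30 alone.

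Slc22a27 measured 2.0, 4.03, 2.31 and 3.23 CPM in OGT-deficient 1 to 4, against 0.790, 0.672, 0.224, 0.0347 and 0.0894 CPM in WT 1 to 5. WT 4 and WT 5 held 1 and 3 counts, and the groups did not overlap (log2 fold change 2.87, SE 0.52, adjusted p = 3.93e-04). Slc22a29 measured 1.31, 1.26, 1.01 and 1.98 CPM in OGT-deficient 1 to 4, against 0.192, 0.0210, 0.0561, 0 and 0 CPM in WT 1 to 5. The WT libraries held 12 counts in all and the OGT-deficient libraries 246, a ratio of 27.7 per assigned count (exact 95% interval 15.6 to 54.4, counting error only). The fitted log2 fold change was 4.44 (SE 0.58, adjusted p = 3.07e-05) and became 5.88 without WT 1, which held 9 of the 12 counts. The sum of this pair was 3.31 to 5.29 CPM in OGT-deficient and 0.0347 to 0.983 CPM in WT libraries.

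Slc22a28 fell to 1.5, 4.11, 3.30 and 2.55 CPM in OGT-deficient 1 to 4, against 13, 14.7, 12.2, 13.1 and 18.7 CPM in WT 1 to 5. It had the lowest fold change of the members described (log2 -2.33, SE 0.24, adjusted p = 4.43e-06). Slc22a30, the most abundant gene of the cluster, stood at 50.8, 73.8, 83.7 and 69.6 CPM in OGT-deficient 1 to 4, against 123, 147, 148, 157 and 181 CPM in WT 1 to 5. No OGT-deficient library reached a WT library (log2 fold change -1.12, SE 0.14, adjusted p = 2.56e-05). Their sum averaged 72.3 ± 14.7 CPM in OGT-deficient and 165 ± 23.0 CPM in WT liver (SD, n = 4 and n = 5). Slc22a28 amounted to 2.95 to 5.57% of Slc22a30 CPM in OGT-deficient libraries and 8.24 to 10.6% in WT libraries, a difference of -1.27 in mean log2 ratio (exact permutation test, two-sided, p = 0.0159, adjusted 0.0159). This ratio, too, was chosen after its values were seen, so its p is no independent support. Fewer non-unique alignments per assigned read were recorded in the OGT-deficient libraries, as given above, and their part in these values was not tested.

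**Figure D4:**
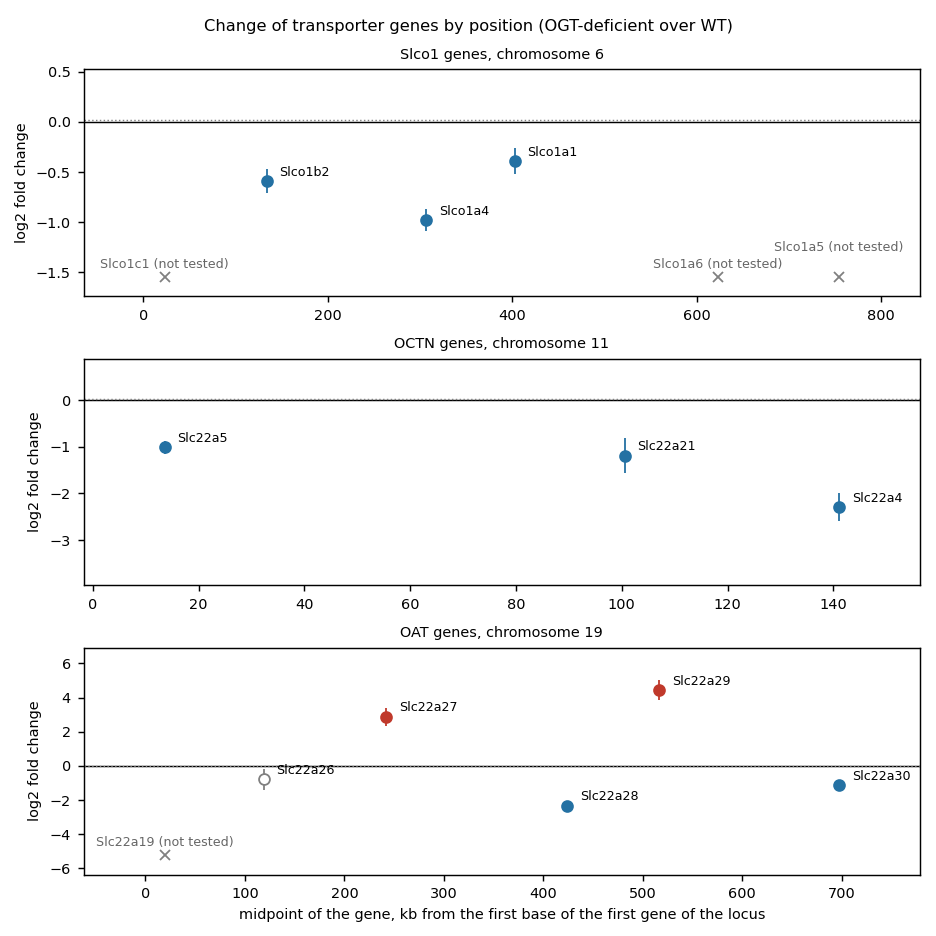
Log2 fold change, OGT-deficient over WT, with standard errors, against the midpoint of each gene in kb from the start of its locus, for the loci on chromosomes 6, 11 and 19. Red points rose, blue points fell, the open point was not called, and crosses at the lower edge mark genes not tested, which have no value. The tested genes on chromosomes 6 and 11 lie below 0, and on chromosome 19 values of 2.87 and 4.44 alternate with values of -2.33 and -1.12.

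Slc22a26, the remaining tested gene of the cluster, averaged 0.675 ± 0.136 CPM in OGT-deficient and 1.13 ± 1.26 CPM in WT liver and was not called (log2 fold change -0.78, adjusted p = 0.292). WT 1 alone stood at 3.29 CPM, and without it the log2 fold change was 0.16 (adjusted p = 0.776). Outside the cluster, Slc22a7 encodes OAT2, a liver carrier of organic anions and cyclic nucleotides. It fell to 17.9, 28.0, 28.6 and 26.7 CPM in OGT-deficient 1 to 4, against 45.9, 46.5, 54.0, 44.0 and 61.9 CPM in WT 1 to 5. All OGT-deficient libraries were lower than all WT libraries (log2 fold change -1.0, SE 0.14, adjusted p = 7.41e-05).

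Slc22a12 encodes URAT1, the urate exchanger of the kidney tubule, and lies on chromosome 19 at 6535845 to 6543032, outside the cluster. Its counts were 208, 96, 204 and 35 in OGT-deficient 1 to 4 (4.38, 2.42, 3.89 and 0.857 CPM), against 0, 2, 0, 0 and 0 in WT 1 to 5. All 4 OGT-deficient libraries exceeded WT, and OGT-deficient 4 was the lowest of them. The 543 counts against 2 gave a ratio of 367 per assigned count (exact 95% interval 101 to 3042, counting error only). The fitted log2 fold change of 7.77 (SE 0.74, adjusted p = 2.22e-06) depends on these 2 counts and became 9.88 without WT 2. Nrxn2 covers 30.1% of its exonic bases, and without strand information reads of the pair cannot be told apart there. Nrxn2 stood at 3.52 to 4.10 CPM in OGT-deficient and 2.27 to 3.48 CPM in WT libraries (log2 fold change 0.54, adjusted p = 0.0128). Of 6 kidney tubule markers, Slc12a1 and Kap had no count, Umod, Slc34a1 and Slc5a2 had no more than 5 in any library, and Lrp2 rose to 4.24 ± 1.22 CPM in OGT-deficient liver, against 0.318 ± 0.20 CPM in WT liver. The list summed to 2.44 to 5.14 CPM in OGT-deficient and 0.171 to 0.596 CPM in WT libraries.

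The products of Slc2a9 and Abcg2 also carry urate. Slc2a9 fell to 30.6 ± 1.08 CPM in OGT-deficient liver, against 57.3 ± 6.32 CPM in WT liver (log2 fold change -0.90, adjusted p = 2.81e-06), and Abcg2 did not pass the test (log2 fold change -0.13, adjusted p = 0.319).

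Of the 4 other Slc22a genes tested, 3 fell and 1 rose, where 29.4% of all tested genes were lower and 31.6% higher. Slc22a23, an orphan carrier, measured 73.5, 98.4, 96.2 and 103 CPM in OGT-deficient 1 to 4, against 142, 159.7, 149, 161 and 149 CPM in WT 1 to 5. WT values lay close together and all above the OGT-deficient ones (log2 fold change -0.71, SE 0.10, adjusted p = 5.41e-05). Slc22a18, an imprinted gene expressed from the maternal allele, measured 51.0, 61.0, 52.1 and 69.7 CPM in OGT-deficient 1 to 4, against 90.5, 89.2, 90.7, 102 and 101 CPM in WT 1 to 5. The groups were fully separated (log2 fold change -0.70, SE 0.10, adjusted p = 7.47e-05). Slc22a15, a carrier of zwitterions, measured 4.09, 4.11, 3.32 and 4.19 CPM in OGT-deficient 1 to 4, against 6.49, 5.99, 6.87, 6.83 and 4.92 CPM in WT 1 to 5 (log2 fold change -0.67, SE 0.14, adjusted p = 0.00124). OGT-deficient 3 was the lowest library and WT 5 the lowest WT library, without overlap.

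Slc22a17, which encodes a receptor for lipocalin-2, measured 1.43, 1.13, 1.85 and 1.59 CPM in OGT-deficient 1 to 4, against 1.20, 0.819, 1.01, 0.832 and 1.22 CPM in WT 1 to 5. OGT-deficient 2 fell within the WT range. The call (log2 fold change 0.56, SE 0.23, adjusted p = 0.0471) was the weakest among the members and was lost under 8 alternatives, where adjusted p reached 0.156 without OGT-deficient 3.

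The MATE gene Slc47a1 fell steeply and evenly. MATE1 exchanges protons for metformin, creatinine and other cations at the canalicular membrane of hepatocytes. Slc47a1, on chromosome 11 at 61343401 to 61378345, measured 21, 22.2, 23.6 and 21.1 CPM in OGT-deficient 1 to 4, against 82.3, 81.0, 85.8, 85.6 and 95.9 CPM in WT 1 to 5. The OGT-deficient libraries spanned less than 3 CPM and the groups were far apart (log2 fold change -1.97, SE 0.08, adjusted p = 4.48e-09). Slc47a2, next to it, was not tested, with 8 counts in OGT-deficient and 0 in WT libraries.

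The 19 members that did not pass the filter were low in every library. For 8 of them no read was counted: Slc22a16, Slc22a19, Slc22a20, Slc22a22, Slco1a5, Slco6b1, Slco6c1 and Slco6d1. The other 11 reached at most 13 counts in any library. Slco1c1, a thyroxine carrier of the blood-brain barrier, had the highest with 31 counts over the OGT-deficient and 21 over the WT libraries. The pseudogene Slc22a13b-ps had 20 counts in OGT-deficient and 24 in WT libraries, and shares 49.9% of its 50-base stretches with Slc22a13. Slco1a6 had 8 and 5 counts in OGT-deficient 1 and 3 and none in the other 7 libraries. It was called higher when no filter was used. The kidney genes Slc22a6 and Slc22a8, which encode OAT1 and OAT3, had 2 counts each over all libraries, in OGT-deficient liver for Slc22a6 and in WT liver for Slc22a8. Slc22a13, Slc22a14, Slc22a2, Slco4c1 and Slco5a1 had no more than 8 in any library.

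Other transporters of the hepatocyte membranes, listed together with the scaffold protein genes Pdzk1 and Slc9a3r1, moved in both directions. Of 19 tested genes of this list, 9 fell, among them Slc9a3r1, and 5 rose, while Pdzk1 was not called. That is 73.7% called, where 61.1% of all genes were called, 29.4% lower and 31.6% higher. Slc10a1, which encodes the sodium-dependent bile acid importer NTCP, fell to 318 ± 40.5 CPM in OGT-deficient liver, against 737 ± 38.5 CPM in WT liver (log2 fold change -1.21, adjusted p = 6.85e-07), and Slc2a9 fell as given above. The P-glycoprotein genes Abcb1a and Abcb1b rose, by 2.92 and 2.70 on the log2 scale, but 17 and 18.3% of their 50-base stretches are also found elsewhere, mostly in each other. The phospholipid floppase gene Abcb4 rose by 0.77, the monocarboxylate carrier gene Slc16a1 by 0.95 and the flippase gene Atp8b1 by 0.23. Atp8b1 (adjusted p = 0.0238) lost its call with the replicate block and without OGT-deficient 2, OGT-deficient 4 or WT 5, where adjusted p reached 0.115. The OSTalpha and OSTbeta genes Slc51a and Slc51b were not tested, with at most 1 and 24 counts in a library. Of 8 tested genes of prostaglandin synthesis, breakdown and export, 3 fell and 2 rose, or 62.5% called, near the 61.1% of all tested genes. The export gene is Abcc4, which was not called and is also counted among the transporters above. Ptgr1 rose by 2.92 and Ptges3 by 0.28. Ptgr2 fell by 0.81, Ptges2 fell by 0.69, and Hpgd, which inactivates the prostaglandins that Slco2a1 imports, fell by 0.69 on the log2 scale.

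Regulators of these transporters were mostly lower. Of 19 described, 13 fell and 1 rose (median log2 fold change -0.63), that is 73.7% called beside the 61.1% of all genes, of which 29.4% were lower. The xenobiotic receptor gene Nr1i3 (CAR) fell by 2.90, Ppara fell by 0.83, the growth hormone receptor gene Ghr fell by 0.88 and the forkhead factor gene Foxa3 fell by 0.96 on the log2 scale. Tomm40l covers 74.9% of the exonic bases of Nr1i3, so that its value is uncertain. Nfe2l2, which encodes NRF2, rose by 0.27 (adjusted p = 0.0283), with overlapping groups. It lost this call without OGT-deficient 1, 3 or 4 and without WT 1, 3 or 4, where adjusted p reached 0.124. The xenobiotic receptor gene Nr1i2 (PXR) was not called (log2 fold change 0.03, adjusted p = 0.877).

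Sex-biased liver genes moved in both directions. Of 10 genes with male-biased expression, 5 fell, 2 rose and 3 were not called, or 70.0% called beside 61.1% of all tested genes. Susd4 fell by 3.20, Hsd3b5 fell by 1.72, Cyp2d9 fell by 0.79 and Nudt7 fell by 1.23 on the log2 scale, while Mup20 rose by 1.81 and Elovl3 by 0.46, the last with overlapping groups and not without OGT-deficient 2 (adjusted p = 0.0545). Of 8 tested female-biased genes, Cyp2a4 (3.47) and Cyp3a44 (1.44) rose and Cyp17a1 fell by 0.81, or 37.5% called. Cyp3a44 averaged 0.573 CPM in OGT-deficient and 0.190 CPM in WT liver, and its call (adjusted p = 0.0464) was lost under 9 alternatives, among them the replicate block and each OGT-deficient library left out (up to 0.0942 over all of them). Cyp17a1 overlapped between the groups and lost its call (adjusted p = 0.0254) without OGT-deficient 1, 2 or 3 or WT 4, with adjusted p up to 0.0726. Sequence shared with relatives makes Cyp2a4 (36.1%), Cyp2d9 (27.9%), Hsd3b5 (18.7%) and Cyp3a44 (18.2%) uncertain. The same holds for Cyp4a12b (49.4%), also among the male-biased genes that fell.

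Markers of liver cell types moved with the groups, where 29.4% of all tested genes were lower and 31.6% higher. Of 8 hepatocyte markers 6 fell, among them Cyp2e1 (log2 fold change -2.37), Apoa1 (-1.18), Alb (-1.14) and Cps1 (-0.66), and their sum was 46989 to 60835 CPM in OGT-deficient and 104638 to 122354 CPM in WT libraries. Cholangiocyte markers summed to 148 to 258 CPM in OGT-deficient and 31.4 to 60.2 CPM in WT libraries, with Epcam higher by 3.33, Prom1 by 3.80, Cldn7 by 4.48 and Krt7 by 3.76 on the log2 scale. Stellate markers summed to 381 to 449 CPM in OGT-deficient and 173 to 273 CPM in WT libraries, with rises of Cygb (1.63), Tagln (1.38), Acta2 (2.53) and Pdgfrb (1.68). Recruited macrophage markers summed to 138 to 232 CPM in OGT-deficient and 31.4 to 58.7 CPM in WT libraries, with rises of Gpnmb (5.01), Spp1 (2.18), Trem2 (2.48) and Itgax (2.07). Spp1 is on both the cholangiocyte and the macrophage list.

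Kupffer cell markers summed to 402 to 699.8 CPM in OGT-deficient and 409 to 584 CPM in WT libraries, where Marco (log2 fold change 0.94) and C1qa (0.36) passed the test and 4 of 6 did not. The groups overlapped for both. Marco lost its call without OGT-deficient 2 (adjusted p = 0.0735), and C1qa without OGT-deficient 1, 2 or 3 or WT 4 or 5 (up to 0.0892). Lymphocyte markers summed to 2.77 to 4.44 CPM in OGT-deficient and 3.23 to 4.75 CPM in WT libraries over 5 genes, and the smallest adjusted p was that of Cd79a (log2 fold change -0.71, adjusted p = 0.114). None of the markers on these 7 lists was at 0 in all libraries. The part of cell composition in the falls of the hepatocyte transporters and in the rises was not tested. The median log2 fold change of the hepatocyte markers was -0.73, with single genes from -2.37 to -0.04. That of the tested transporters, which are not all hepatocyte genes, was -0.70, with single genes from -2.33 to 7.77.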

How the data were processed

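RNA from whole liver was sequenced in 4 OGT-deficient and 5 WT libraries. The deposited values are whole-number read counts of 24421 gene symbols, not normalized, followed in each library by 5 summary lines, which stayed out of library sizes and tests. Of uniquely aligned reads, 8.95 to 10.7% were assigned to no annotated feature and 1.78 to 2.17% overlapped several. The submitters' processing notes name HTSeq 0.9.1, TopHat2 2.1.0 and the build mm10 (GRCm38). Neither the annotation release nor the strand setting is given in the sources used here. Replicates are libraries numbered in the labels. The series' text calls the controls littermates, but the litter and batch of each library are not given, so p-values measure the spread between these libraries. Chi-square per degree of freedom within groups was 23.9 to 135 over 16 pairs, and no library was treated as a duplicate.

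Counts were tested in R 4.3.3 with edgeR 4.0.16 (filterByExpr, TMM scaling, quasi-likelihood F test on group), and p-values were adjusted by Benjamini-Hochberg over 14104 genes. The standard error is the log2 fold change divided by the square root of F. CPM uses TMM-scaled library sizes. The TMM factors did not overlap between the groups, at 1.088 to 1.217 in OGT-deficient and 0.8797 to 0.9152 in WT libraries. The size of small falls, such as that of Slco1a1, therefore depends on the scaling. Genes were annotated from GENCODE mouse release 21 (all 43 members matched). Promoters come from RefSeq (GRCm38.p6), where 36 members described had an entry, and coding sequences from GENCODE transcripts. Intervals and floors cover counting error only. Ratios of paralogs used exact permutation tests (scipy 1.17.1). The script was tested on simulated data with known changes.

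Values per library are given for each tested member with adjusted p under 0.05 or a mean of at least 5 CPM. From other lists up to 4 genes with the smallest p are named, plus those against the majority. Genes named beyond this rule were chosen after their values were seen. A member and a gene on each of 2 lists are not reported here and stand in no count of members or lists. The members and lists were chosen with earlier results of these data known. Alternatives were DESeq2 size factors, upper-quartile factors, 2 other filters, DESeq2 1.42.0, limma 3.58.1 voom, the replicate number as a block and leaving out each library.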

Additional observations from a re-analysis of the deposited data

Results flagged for a closer look

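In 3 of 46 sets of replicate values, a library stood far from the others of its group by Dixon's criterion, which chance meets in about 1 of 20 sets. Slc22a26 measured 3.29 CPM in WT 1, against 0.224 to 1.03 CPM in the other WT libraries. Slc22a15 measured 3.32 CPM in OGT-deficient 3, against 4.09 to 4.19 CPM in the other OGT-deficient libraries. Slc22a12 measured 0.0420 CPM in WT 2, from 2 counts, where the other WT libraries had 0.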

How the results depend on the processing

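The numbers of called members moved little. Over the alternatives that kept all libraries 4 or 5 members were higher and 13 to 15 lower, and with each library left out in turn 4 to 5 were higher and 13 to 15 lower. With the filter of 1 CPM in 4 libraries 19 members were tested. Slc22a12 and Slc22a21, both called here, were then not among them. Calls over all genes numbered 7960 to 8472 with a library left out. Of 364 values of single members under the alternatives, 346 kept their direction and side of the threshold, 13 lost and 3 gained a call, and 2 changed sign, neither of them called: Slc22a26 (0.16 without WT 1, and down to -1.04 without WT 3) and Slco2b1 (0.04 with upper-quartile factors). The cause was not tested. Slc22a12 had a log2 fold change of 7.13 and Slc22a29 of 5.03 with limma voom. Same-numbered libraries deviated from their group means with correlations of -0.103 to 0.104, and 1 of 4 OGT-deficient libraries correlated best with its own number, so the numbers were not taken as pairs. With the replicate block 4 members were higher and 13 lower, and 7869 genes were called, 7740 of them among the 8614 called without it. With no filter beyond a count above 0, 34 members were tested and Slco1a6 was also called (adjusted p = 0.0446), while Slc22a17 was not. Members under about 10 counts per library cannot be resolved at this depth.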
